A study of Homo sapiens with 12 samples.

Results

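The comparison described here asks how the effect of Aa on gene expression differed between 24 h and 48 h of exposure. For every gene, the Aa effect at each time is the log2 level in Aa-exposed cells minus that in control cells, and the change of the effect is the 48 h effect minus the 24 h effect, with the biological replicate number as a block. The members are all genes measured by a probe set with 1 gene symbol whose log2 values average 4 or more across all 12 arrays, 10791 of 19775 genes. The cells were HK-2, an immortalised line of human proximal tubular epithelium, all grown in medium with EGF, insulin, hydrocortisone and transferrin and treated near confluency. The 4 groups of 3 arrays were cells given a low dose of Aa for 24 h, cells given a low dose of Aa for 48 h, and cells given the control vehicle for 24 h or for 48 h. No source used here gives the full name of Aa, its numeric dose or the vehicle. All groups share the single immortalised line, so they describe 1 cell culture model. The labels speak of biological replicates but not of how those cultures were kept apart, so a p-value here reflects only the spread among these samples, which may be technical. Of 25 proximal tubule markers 22 had a probe set and 7 passed the filter on low values: CDH6, DPP4, ABCC4, PAX8, PDZK1, CDH16 and SLC3A1. The receptors LRP2 and CUBN, the water channel AQP1 and the phosphate transporter SLC34A1, which define the differentiated tubule, had mean log2 values of 2.79, 2.09, 2.41 and 3.03, below the filter in these cells. The summed linear level of the 22 markers was 15193 to 20088 in 24 h controls, 12819 to 17968 with Aa at 24 h, 15935 to 20275 in 48 h controls and 10596 to 15895 with Aa at 48 h. All 9 leukocyte markers with a probe set had means below 4.

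Several gene programmes come up below. Genes of mitosis encode the kinases, kinesins, kinetochore proteins and checkpoint proteins that build the spindle and part the chromosomes. They are transcribed late in the cell cycle, through the MuvB complexes with B-MYB and FOXM1, which act at promoter elements called CHR and CCAAT box. Genes of DNA replication are transcribed earlier, in late G1 and S phase, largely through E2F factors. Immediate early genes encode unstable transcription factors such as FOS, FOSL1 and KLF4, whose messages respond within minutes to growth factor or stress signals. The span of a gene, the distance from its start to its end in the genome, sets how long RNA polymerase II needs to transcribe it.

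Arrays of a group correlated with r from 0.994 to 0.997 across probe sets, and arrays of different groups with r from 0.980 to 0.997. Medians of the arrays lay between 2.93 and 3.01. The actin control probe sets, whose 3′ minus 5′ difference grows as RNA degrades, gave a change of the Aa effect of 0.063, 0.076 and 0.15 in replicates 1, 2 and 3, and those of GAPDH a mean of -0.016. The part of this in the results was not tested. Deviations from the group means correlated at r of 0.35 to 0.62 in the 18 array pairs that share a replicate number, and at -0.49 to -0.011 in the 36 that do not. Such deviations cancel out within each group, so positive values in the former go with negative values in the latter by construction.

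The Aa effect differed between 24 h and 48 h in 1183 of 10791 genes, 11.0% of those tested (limma with the replicate block, Benjamini-Hochberg adjusted p under 0.05). It was higher at 48 h in 678 genes (6.28%) and lower in 505 (4.68%), and these are called shifted up and shifted down from here on. The size was at least 2-fold in 147 of the genes shifted up and 99 of those shifted down. The median change over all genes tested was 0.0095, the median of the genes shifted up was 0.69 and that of the genes shifted down -0.67. In all 1183 genes the contrast had the same sign in each of the 3 replicates, which was so in 5902 of all genes tested. The count depends on the replicate block and on the number of replicates. Without the block 80 genes were shifted up and 9 down, all 89 of them among the 1183. Without replicate 1 no gene passed in limma (1962 at an unadjusted p under 0.05), without replicate 3 only 1 gene, TNFAIP6, passed, and without replicate 2 445 genes passed. These limits hold for every gene named below: of 111 named genes, 13 kept their call without the block, and these were ENC1, SERTAD1, TNFAIP6, CDKN2B, ID2, GEM, PIMREG, FAM83D, KIF20A, CENPF, TOP2A, TP53I3 and IER5. With no filter on low values 40 named genes lost their call: CCNA1, HBEGF, SLN, ADM, FOS, FZD7, ZNF702P, TDRKH, GPC6, CHMP2A, SLC7A11, GALNT13, IMMP2L, DSCAML1, SLC44A5, ZFHX4-AS1, MICOS13, SAMD12, SCAPER, PMAIP1, RAD54L, FANCG, KLF4, DUSP5, IFI35, ME1, PPARA, CHORDC1, HSPH1, BAG3, MXI1, POLR1C, NOP58, PSMD12, SNRNP70, POLR2A, TGFBI, BCL2, VCAM1 and S100A4.

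**Figure D1:**
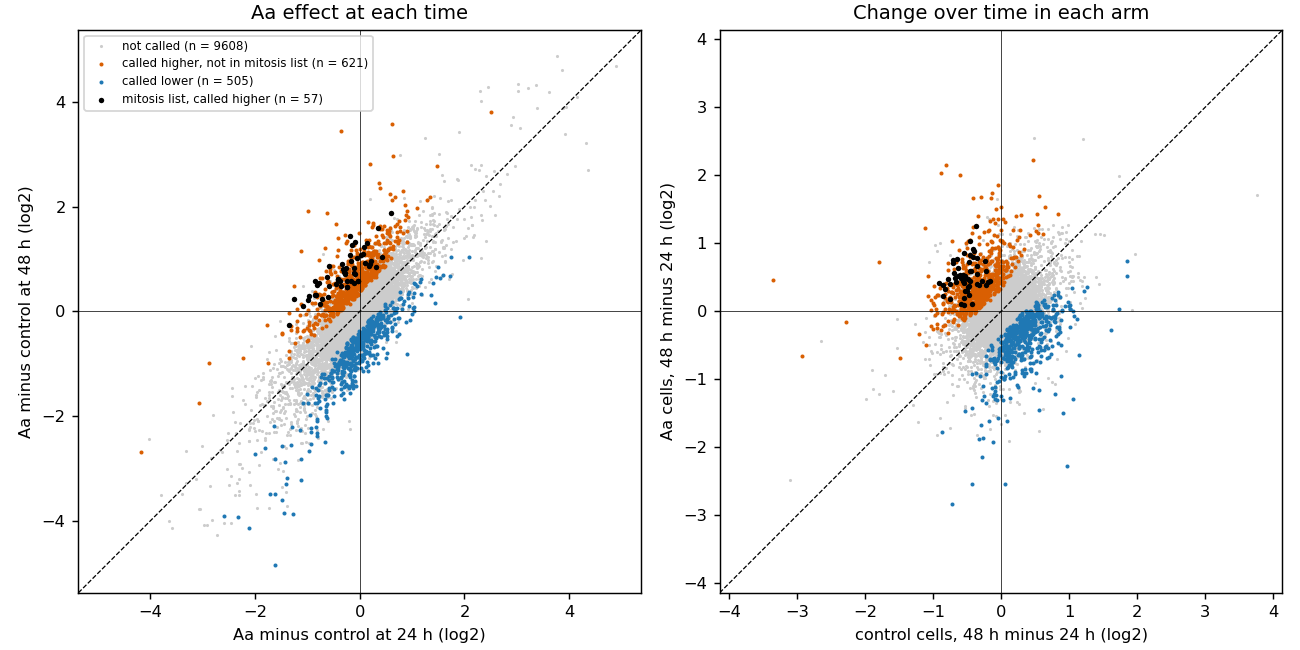
Left, the Aa effect of each of the 10791 genes at 48 h against that at 24 h, in log2 units; right, the change from 24 h to 48 h in Aa cells against that in control cells. Each point is a gene (difference of means of 3 arrays per group), the dashed line marks equal values, and points above it are genes whose Aa effect was higher at 48 h. The 57 mitosis genes shifted up (black) lie above the line, and in the right panel they lie to the left of 0, lower at 48 h than at 24 h in control cells.

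The largest class of shifts held genes whose Aa effect passed at 48 h and not at 24 h. This was so in 349 of the 678 genes shifted up. Of the others, 104 had a rise that grew and 122 a fall at 24 h that no longer passed at 48 h. In 24 a fall shrank, and 79 turned from a fall to a rise. Of the 505 genes shifted down, 263 passed at 48 h alone and 119 had a fall that grew. In 64 a rise at 24 h no longer passed, in 20 a rise shrank and 35 turned from a rise to a fall. The other 4 passed at neither time. A gene that did not pass at 24 h may still have had an effect then. SLN, which passed at 48 h alone, had effects of -1.13 at 24 h (adjusted p = 0.0538 in limma) and 1.15 at 48 h. Over all genes, 18.5% rose and 22.8% fell with Aa at 24 h, and 26.7% rose and 28.1% fell at 48 h.

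The shifts are divided here by the arm that moved. The change of the effect equals the change over time in Aa cells minus that in control cells. Genes picked for a shift up therefore tend to rise in Aa cells or fall in controls by construction, and the reverse holds for shifts down. Here a rise or fall over time is 48 h against 24 h within 1 arm, and 11.4% of all genes rose and 9.96% fell over time in Aa cells, against 8.69% and 9.09% in control cells. Among the 678 genes shifted up, 279 rose in Aa cells with no call in controls, 234 fell in controls with no call in Aa cells, and 104 did both. Among the 505 shifted down, 233 fell in Aa cells with no call in controls, 185 rose in controls with no call in Aa cells, and 40 did both. The median gene shifted up had a change over time of 0.38 in Aa cells and of -0.35 in control cells, and the median gene shifted down had -0.36 in Aa cells and 0.32 in control cells. The calls over time rest on the block: without it 331 genes rose and 263 fell in Aa cells, and 25 rose and 29 fell in control cells. Without replicate 1 the counts were 80 and 46 in Aa cells and 1 and 1 in control cells.

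Mitosis genes had the largest share of shifts among the gene lists examined. Of 64 genes listed for mitosis 63 were tested, and 57 of them were shifted up and 0 down (0 also at an unadjusted p under 0.05), against 6.28% and 4.68% of all genes. The median change was 1.02, against 0.0095 over all genes, with medians of 0.97, 0.90 and 1.18 in replicates 1, 2 and 3. In 61 of 63 the contrast was above 0 in all 3 replicates. The 6 members without a call were INCENP, SPC25, SPC24, CENPI, CDC25B and BUB3, with changes of 0.86, 0.83, 0.45, 0.44, 0.33 and 0.19. Without the block 31 of the 63 were shifted up, and without single replicates 0 to 36, while the median stayed between 0.94 and 1.06. The list was chosen with results of these data known, so its count is a description.

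At 24 h the mitosis genes leaned to lower levels with Aa, and at 48 h to higher ones. With Aa at 24 h 4 rose and 31 fell (median effect -0.29), and at 48 h 51 rose and 1 fell (median 0.62). Of all genes, 18.5% rose and 22.8% fell at 24 h, and 26.7% rose and 28.1% fell at 48 h. Over time 46 fell and 0 rose in control cells (median -0.53), whereas 47 rose and 0 fell in Aa cells (median 0.47). Among all genes 9.09% fell and 8.69% rose over time in control cells, and 11.4% rose and 9.96% fell in Aa cells. Of the 57 shifted up, 19 turned from a fall to a rise and 4 had a rise that grew. In 25 a rise passed at 48 h alone, and in 9 a fall passed at 24 h alone. In bulk RNA, fewer cells in mitosis and less message per cell cannot be told apart.

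**Figure D2:**
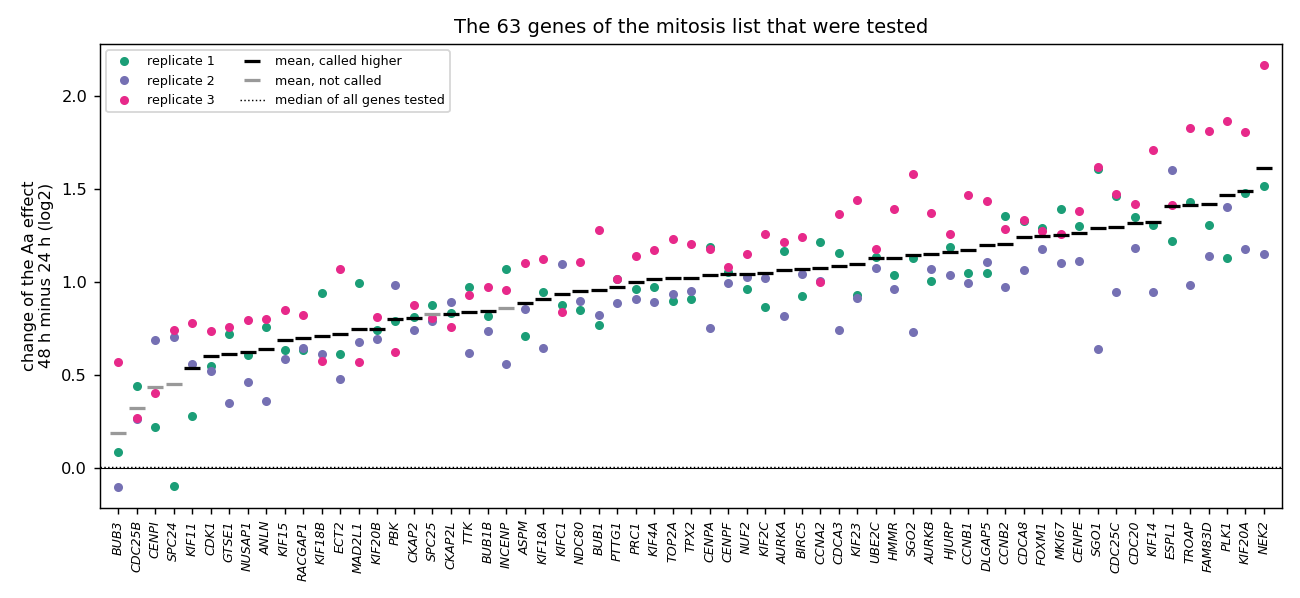
Change of the Aa effect (log2, 48 h minus 24 h) for the 63 mitosis genes tested, in order of the mean. Coloured points are the 3 replicates, bars are means (black where called, grey where not), and the dotted line is the median of all genes. In 61 genes all 3 points lie above 0, the exceptions being BUB3 and SPC24.

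KIF20A encodes a kinesin of the central spindle that is needed for cytokinesis. Its log2 values were 10.80, 10.94 and 11.06 in controls and 9.64, 9.94 and 9.43 with Aa at 24 h, and 10.38, 10.56 and 10.50 in controls and 10.71, 10.73 and 10.68 with Aa at 48 h. All Aa arrays lay below all controls at 24 h and above them at 48 h, with a change of 1.49 (SE 0.16, adjusted p = 0.00549). The 24 h effect was -1.26 (adjusted p = 1.17e-04) and that at 48 h 0.23 (adjusted p = 0.115). PLK1, the polo-like kinase that drives mitotic entry and spindle assembly, had values of 9.75, 9.61 and 10.28 in controls and 9.38, 9.19 and 9.29 with Aa at 24 h, and 9.43, 8.54 and 9.55 in controls and 10.18, 9.54 and 10.42 with Aa at 48 h. At 24 h the groups did not overlap and Aa was lower, while at 48 h Aa was higher within each replicate and the lowest Aa array, that of replicate 2, lay at the level of the highest control, that of replicate 3. Its change was 1.47 (SE 0.25, adjusted p = 0.0110).

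CENPF, a protein of the outer kinetochore, had values of 12.34, 12.46 and 12.38 in controls and 12.06, 12.29 and 11.94 with Aa at 24 h, and 11.88, 11.95 and 12.004 in controls and 12.66, 12.77 and 12.65 with Aa at 48 h. The Aa arrays were lowest at 24 h and highest at 48 h with no overlap at either time, and the change was 1.05 (SE 0.11, adjusted p = 0.00549), and 1.73 without shared probe sets. TOP2A encodes the topoisomerase that untangles sister chromatids. It measured 12.41, 12.47 and 12.60 in controls and 12.62, 12.63 and 12.43 with Aa at 24 h, and 12.11, 12.15 and 12.14 in controls and 13.22, 13.24 and 13.21 with Aa at 48 h. The groups overlapped at 24 h and separated at 48 h, where the 3 Aa arrays lay within 13.21 to 13.24, and the change was 1.02 (SE 0.11, adjusted p = 0.00549). BIRC5 (survivin, a subunit of the chromosomal passenger complex) shifted by 1.07 (SE 0.12, adjusted p = 0.00549), and by 1.91 without shared probe sets, with an effect of -0.059 at 24 h and 1.01 at 48 h. PIMREG and FAM83D, which act at the metaphase to anaphase step and in spindle positioning, turned from falls of -0.56 and -0.85 to rises of 0.86 and 0.57.

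The promoters of these genes are shown because the list moved together and its members are known to share promoter elements. RefSeq windows of 300 bases (GRCh38.p14, 250 bases before to 50 after the annotated start) were matched for 8925 of the genes tested, 52 of them on the mitosis list. The CHR element was searched as TTTGAA and the CCAAT box as CCAAT, each on both strands. A CHR match was held by 36 of 52 (69.2%) mitosis promoters, against 838 of 8925 (9.39%) of all genes tested, 72 of 505 (14.3%) of the other genes shifted up and 38 of 412 (9.22%) of those shifted down. A CCAAT box was held by 41 of 52 (78.8%) mitosis promoters and by 3335 of 8925 (37.4%) of all genes. Both together were in 31 of 52 (59.6%) and 361 of 8925 (4.04%). Promoters of the replication list held CHR in 3 of 49 (6.12%) and an E2F element (searched as TTCCCGC, as TTGGCGC and as TTCGCGC, both strands) in 35 of 49 (71.4%), against 14 of 52 (26.9%) of mitosis and 1664 of 8925 (18.6%) of all promoters. A match is a string of letters and not a measured site. No window was matched for BIRC5 and FAM83D. The windows of the other named genes of the mitosis list follow, 5′ to 3′, with CHR and CCAAT matches of either strand in capitals.
KIF20A: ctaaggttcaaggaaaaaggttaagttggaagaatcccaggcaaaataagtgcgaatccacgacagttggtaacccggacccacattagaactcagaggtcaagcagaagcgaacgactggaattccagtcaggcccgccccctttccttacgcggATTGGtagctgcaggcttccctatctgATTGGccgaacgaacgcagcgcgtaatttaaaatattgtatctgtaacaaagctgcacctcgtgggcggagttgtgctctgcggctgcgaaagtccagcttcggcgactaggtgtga
CENPF: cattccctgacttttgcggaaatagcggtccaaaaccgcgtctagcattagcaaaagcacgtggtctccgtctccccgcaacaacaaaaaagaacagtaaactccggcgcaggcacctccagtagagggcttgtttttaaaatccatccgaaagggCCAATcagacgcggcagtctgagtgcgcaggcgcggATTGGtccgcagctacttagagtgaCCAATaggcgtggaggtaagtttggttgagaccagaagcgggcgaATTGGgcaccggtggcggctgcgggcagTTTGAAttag
TOP2A: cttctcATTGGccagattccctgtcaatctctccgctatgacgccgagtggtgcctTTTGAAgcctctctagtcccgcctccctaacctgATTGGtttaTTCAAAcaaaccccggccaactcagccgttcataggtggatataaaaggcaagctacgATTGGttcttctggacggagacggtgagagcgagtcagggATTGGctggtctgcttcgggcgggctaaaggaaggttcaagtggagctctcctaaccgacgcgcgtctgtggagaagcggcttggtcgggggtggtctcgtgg
PLK1: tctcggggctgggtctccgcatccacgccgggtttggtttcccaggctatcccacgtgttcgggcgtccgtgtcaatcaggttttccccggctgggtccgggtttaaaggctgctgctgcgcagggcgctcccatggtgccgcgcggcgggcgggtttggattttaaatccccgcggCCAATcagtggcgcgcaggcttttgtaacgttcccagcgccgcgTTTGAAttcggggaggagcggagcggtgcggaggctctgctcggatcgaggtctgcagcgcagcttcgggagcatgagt

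These windows lie at chr5:138178862-138179161, plus strand (KIF20A), chr1:214602945-214603244, plus strand (CENPF), chr17:40417847-40418146, minus strand (TOP2A) and chr16:23678639-23678938, plus strand (PLK1). KIF20A has 2 CCAAT boxes and 0 CHR matches in its window, CENPF 4 and 1, TOP2A 4 and 2, and PLK1 1 and 1. All 4 genes were named because they were shifted up, by 1.49, 1.05, 1.02 and 1.47, and any link of the matches to the shifts was not tested. Only exact strings were searched, so 0 matches does not mean that a variant element is absent.

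Replication and G1/S genes were shifted up in 16.9%, against 6.28% of all genes. Of 59 tested, 10 were shifted up and 0 down (7 lower at an unadjusted p under 0.05), with a median change of 0.089. Aa raised 30 and lowered 6 of them at 24 h, and raised 37 and lowered 6 at 48 h. Of all genes, Aa raised 18.5% and lowered 22.8% at 24 h, and raised 26.7% and lowered 28.1% at 48 h. Over time 31 fell in controls and 21 fell in Aa cells, against 9.09% and 9.96% of all genes. The named members were CCND1, POLA2, MCM10 and RFC3. CCND1 (cyclin D1, which starts the G1 phase kinases) had values of 7.89, 7.43 and 8.79 in controls and 8.004, 6.92 and 8.39 with Aa at 24 h, and 7.41, 7.39 and 8.04 in controls and 8.94, 8.55 and 9.28 with Aa at 48 h. The groups overlapped at 24 h and all Aa arrays were higher at 48 h, giving a change of 1.58 (SE 0.27, adjusted p = 0.0112). POLA2, a subunit of the primase complex, was lowered at both times and less so at 48 h, with effects of -1.31 at 24 h and -0.35 at 48 h. MCM10, a factor of fork assembly, and RFC3, a subunit of the loader of the sliding clamp, shifted by 0.87 and 0.51. MCM10 did not pass with the median of its probe sets or without probe sets marked as shared, where its change was as low as 0.17.

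Histone genes held 2 shifts up among 12 tested (16.7%, against 6.28% of all genes). H2AX, the histone variant that is phosphorylated at DNA breaks, had an effect of 0.74 at 24 h and 1.72 at 48 h, a change of 0.98 (SE 0.11, adjusted p = 0.00549). It fell over time in controls, by 0.85, and had 0.13 over time in Aa cells. It did not pass with the median of its probe sets. The linker histone H1-2 shifted by 1.17 (SE 0.19, adjusted p = 0.0108).

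ID2 and GEM had the largest shifts among genes whose effect turned from a fall to a rise. ID2 encodes an inhibitor of basic helix-loop-helix transcription factors. Its values were 9.75, 9.41 and 9.55 in controls and 9.12, 8.59 and 8.68 with Aa at 24 h, and 10.16, 9.99 and 9.99 in controls and 11.18, 11.19 and 10.71 with Aa at 48 h. Aa arrays were below all controls at 24 h and above all of them at 48 h, and the change was 1.76 (SE 0.17, adjusted p = 0.00549), with 1.66, 2.02 and 1.59 in the 3 replicates. Both of its probe sets moved the same way. GEM, a small GTPase induced by mitogens, measured 7.88, 8.20 and 8.39 in controls and 7.49, 7.87 and 7.87 with Aa at 24 h, and 7.88, 7.89 and 8.47 in controls and 9.18, 9.37 and 9.20 with Aa at 48 h. The groups changed order between the times, and the change was 1.58 (SE 0.19, adjusted p = 0.00579). They were clearly apart at 48 h but only just apart at 24 h, with the highest Aa array at 7.875 and the lowest control at 7.877.

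Immediate early genes also held shifts up. Of 26 tested, 8 were shifted up (30.8%, against 6.28% of all genes) and 1 down (3.85%, against 4.68%), with a median change of 0.42. The median Aa effect of the list was 0.12 at 24 h and 0.75 at 48 h. At 48 h 18 rose and 4 fell, against 26.7% and 28.1% of all genes. FOSL1 (FRA-1, a partner of JUN in the AP-1 factor) had values of 6.59, 6.36 and 7.94 in controls and 6.64, 5.46 and 6.91 with Aa at 24 h, and 5.24, 3.87 and 6.41 in controls and 7.16, 6.20 and 7.84 with Aa at 48 h. Aa was lower in replicates 2 and 3 at 24 h and higher in every replicate at 48 h, and the change was 2.52 (SE 0.34, adjusted p = 0.00704). Controls fell over time by 1.79, against a change of 0.73 in Aa cells (adjusted p = 0.0614). FOS itself measured 4.95, 5.18 and 5.35 in controls and 5.04, 4.90 and 4.29 with Aa at 24 h, and 5.01, 4.90 and 5.11 in controls and 6.48, 7.06 and 5.68 with Aa at 48 h. The controls had no call over time (a difference of -0.15, adjusted p = 0.746) and the Aa arrays were higher at 48 h, with a change of 1.82 (SE 0.40, adjusted p = 0.0262).

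KLF4 and IER5, an epithelial zinc finger factor and a heat- and damage-responsive regulator, shifted by 1.74 (SE 0.33, adjusted p = 0.0166) and 1.37 (SE 0.22, adjusted p = 0.0100). JUND was the list's shift down, at -0.34, and JUN, IER3 and MAFF were shifted up by 0.64, 0.81 and 1.12. These 4 were chosen after their values were seen. Of 18 genes of ERK feedback and EGFR ligands, 0 were shifted down (2 lower at an unadjusted p under 0.05). Shifts up were 3 of 18 (16.7%), against 6.28% of all genes. HBEGF, a ligand of the EGF receptor, led them with values of 7.06, 7.30 and 8.15 in controls and 8.17, 7.47 and 8.76 with Aa at 24 h, and 5.67, 6.42 and 7.05 in controls and 9.10, 9.87 and 9.10 with Aa at 48 h. The groups overlapped at 24 h and not at 48 h, and the change was 2.35 (SE 0.50, adjusted p = 0.0237). DUSP5 and PHLDA1, both targets of ERK signalling, shifted by 0.83 and 0.37. Neither passed with the replicate as a random block or with centred arrays, DUSP5 did not pass with a filter at 3, and PHLDA1 did not pass without shared probe sets and had 0.68 with the median of its probe sets.

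**Figure D3:**
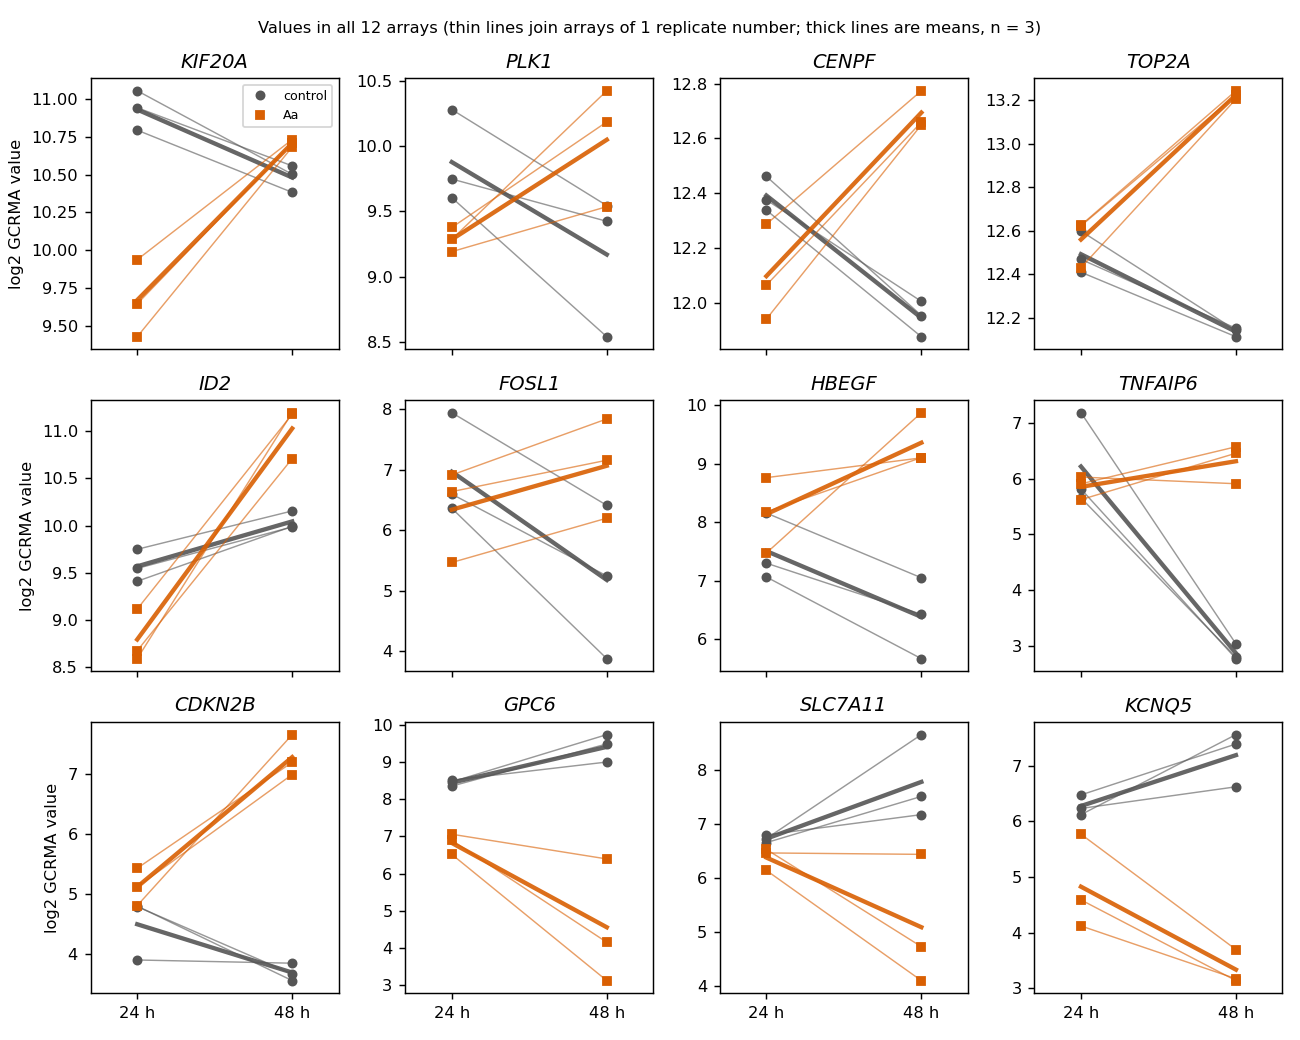
Log2 values of 12 named genes in all 12 arrays, at 24 h and 48 h, with controls in grey and Aa in orange. Thin lines join the arrays of 1 replicate number and thick lines the means of 3. In KIF20A, CENPF and ID2 the order of the groups reverses between the times, and in GPC6, SLC7A11 and KCNQ5 the groups move apart.

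The largest shift up belonged to an inflammatory gene. TNFAIP6 (TSG-6, a secreted hyaluronan-binding protein induced by tumour necrosis factor) had values of 5.65, 5.81 and 7.18 in controls and 5.91, 5.62 and 6.03 with Aa at 24 h, and 2.79, 2.77 and 3.03 in controls and 6.57, 6.45 and 5.91 with Aa at 48 h. The groups overlapped at 24 h, and at 48 h the controls were below 4 and the Aa arrays were not, so the change of 3.81 (SE 0.48, adjusted p = 0.00633) was mostly a fall over time in controls of 3.35. Its control mean at 48 h, 2.86, is under 4, where signal is weak, so the size of its shift is uncertain. Of 20 genes of the NF-kB and inflammatory list, 7 were shifted up (35%) and 1 down (5%), with a median of 0.34. Over all genes the shares were 6.28% and 4.68%. NFKB2 and ICAM1, a subunit of NF-kB and an adhesion molecule it induces, shifted by 0.68 (SE 0.15, adjusted p = 0.0240) and 0.59 (SE 0.13, adjusted p = 0.0264). CCL2, a monocyte chemokine, went the other way, with 6.14, 7.29 and 5.62 in controls and 5.84, 7.19 and 5.47 with Aa at 24 h, and 6.99, 8.46 and 6.65 in controls and 5.35, 6.87 and 5.59 with Aa at 48 h. It was higher at 48 h than at 24 h in every control replicate and had a change of -1.25 (SE 0.19, adjusted p = 0.00805). With the replicate as a random block NFKB2, ICAM1 and CCL2 did not pass, nor did ICAM1 with the median of its probe sets.

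Interferon-stimulated genes were split. Of 26 tested 4 were shifted up (15.4%) and 2 down (7.69%), against 6.28% and 4.68% of all genes, with a median of 0.21. OAS3, an antiviral enzyme, shifted by 1.13 (SE 0.16, adjusted p = 0.00704), and IFI35 by 1.49 (SE 0.30, adjusted p = 0.0183). IFI35 was lower with Aa at both times, with values of 3.61, 4.54 and 4.04 at 24 h and 4.90, 5.35 and 5.93 at 48 h against controls of 8.24 and 8.08, so its shift up was a smaller fall. IFIH1, a sensor of double-stranded RNA, and IFIT5 shifted down, at -0.64 and -0.54.

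Other large shifts up were in genes of the cell cycle, signalling and membranes. CDKN2B (p15, an inhibitor of the cyclin D kinases) had values of 3.91, 4.79 and 4.80 in controls and 5.43, 4.81 and 5.12 with Aa at 24 h, and 3.85, 3.68 and 3.56 in controls and 7.19, 7.65 and 6.99 with Aa at 48 h. Aa was just above all controls at 24 h and far above them at 48 h, with a change of 2.96 (SE 0.39, adjusted p = 0.00704). The control mean at 48 h, 3.70, is below 4. CCNA1, the cyclin A of the germ line, had the largest shift among genes with all group means at 4 or more, 2.91 (SE 0.69, adjusted p = 0.0317), but with a wide spread, since its values in 48 h controls were 4.79, 5.78 and 7.83 and those with Aa 7.77, 7.52 and 8.87. SERTAD1, a cofactor of CDK4 and E2F, measured 6.71, 6.18 and 7.24 in controls and 7.29, 6.75 and 7.21 with Aa at 24 h, and 6.48, 5.86 and 6.54 in controls and 8.82, 8.63 and 8.78 with Aa at 48 h. The groups overlapped at 24 h and not at 48 h, and the change was 2.08 (SE 0.21, adjusted p = 0.00549).

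ENC1, an actin-binding adaptor of a ubiquitin ligase, had the same course with 7.22, 7.03 and 7.27 in controls and 7.61, 7.25 and 7.26 with Aa at 24 h, and 6.66, 6.10 and 6.95 in controls and 9.78, 9.02 and 9.33 with Aa at 48 h. The groups overlapped at 24 h and not at 48 h, and its change was 2.61 (SE 0.23, adjusted p = 0.00549). ADM, the vasodilator peptide adrenomedullin, shifted by 1.98 (SE 0.47, adjusted p = 0.0320), with single replicates from 0.87 to 3.41. SLN, a small regulator of the calcium pump, and TM4SF4, a tetraspan membrane protein, shifted by 2.28 (SE 0.58, adjusted p = 0.0393) and 2.12 (SE 0.35, adjusted p = 0.0108). In both the controls fell over time, by 2.93 and 2.27, and Aa cells had no call. SLN did not pass with a random block. ZNF165 and TDRKH were instead lowered by Aa at both times and less so at 48 h, with effects of -2.89 and -0.99, and of -3.08 and -1.76. FZD7, a Wnt receptor, and the pseudogene ZNF702P shifted by 1.87 and 1.66, each with a group mean below 4, as had TDRKH, and ZNF702P did not pass with a filter at 3, with centred arrays or with the median of probe sets.

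Shifts down made up a larger share of the genes that span long stretches of the genome than of short genes. Of 331 tested genes that span over 300 kb, 50 were shifted down and 3 up, with a median change of -0.50. In the class of 100 to 300 kb 185 of 1593 were shifted down and 18 up (median -0.20). In the class of 30 to 100 kb the counts were 136 down and 179 up of 3515 (median 0.00075), in that of 10 to 30 kb 60 and 302 of 3170 (median 0.11) and in genes under 10 kb 73 and 176 of 2175 (median 0.049). The median span was 86.2 kb in genes shifted down and 19.2 kb in genes shifted up. The effect was already below 0 at 24 h in the longest class, with medians of -0.54 at 24 h and -1.05 at 48 h. Within replicates 1, 2 and 3 the median change of that class was -0.58, -0.41 and -0.52. With no filter on low values it was -0.0037 over 776 genes of that span, of which 16 were shifted down, and without the block 2 of 331 passed.

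**Figure D4:**
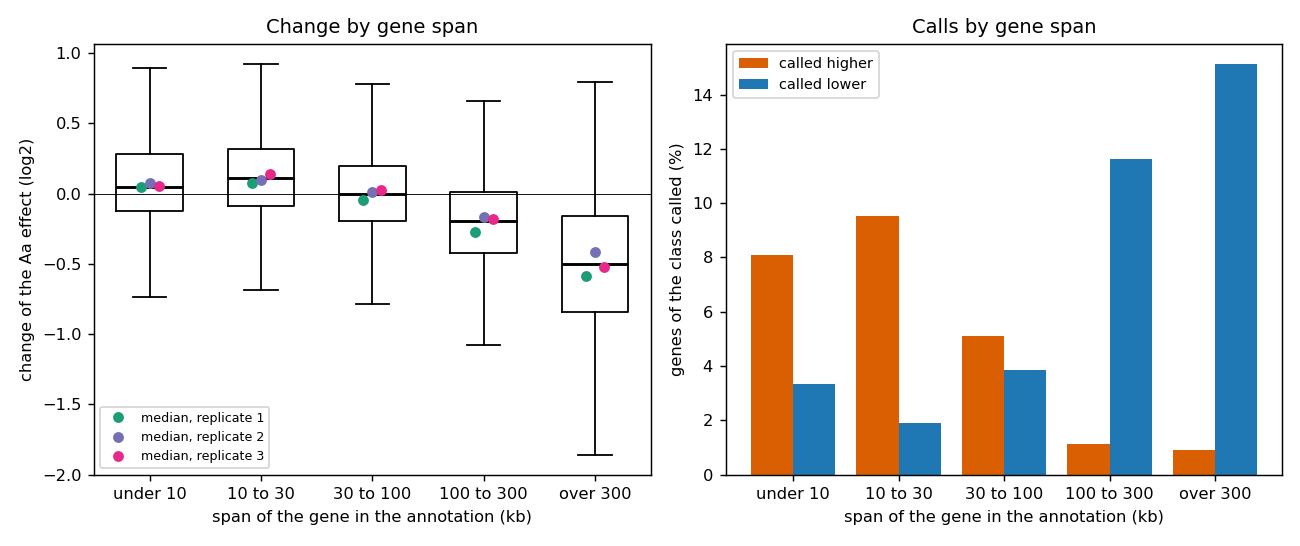
Left, change of the Aa effect (log2) in 5 classes of gene span, with boxes for quartiles, whiskers to the farthest value within 1.5 box lengths and coloured points for the class median in each replicate. Right, the share of each class shifted up (orange) or down (blue). The median of all 3 replicates is lowest in genes over 300 kb, where 15.1% were shifted down and 0.906% up.

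For each direction, 15 genes were named by size: the 10 largest with all group means at least 4 and the 5 largest with a group mean below 4. Of the 15 shifted down, 8 span over 300 kb and 3 under 30 kb, whereas all 15 shifted up span under 30 kb. Among the 10784 tested genes with a known span, 331 span over 300 kb, 3170 span 10 to 30 kb and 2175 under 10 kb. GPC6, a cell surface heparan sulfate proteoglycan with a span of 1191 kb, had values of 8.35, 8.47 and 8.51 in controls and 6.52, 7.06 and 6.90 with Aa at 24 h, and 9.49, 9.74 and 9.002 in controls and 3.12, 6.39 and 4.15 with Aa at 48 h. Aa was lower at both times with no overlap, controls were higher at 48 h, and the change was -3.23 (SE 0.75, adjusted p = 0.0303). Its 2 probe sets moved the same way, and the Aa arrays at 48 h were spread from 3.12 to 6.39. GALNT13, a glycosyltransferase, and IMMP2L, a mitochondrial peptidase, span 1388 and 899.8 kb and shifted by -2.11 (SE 0.46, adjusted p = 0.0253) and -2.01 (SE 0.52, adjusted p = 0.0404). KCNQ5, a potassium channel of 577 kb, measured 6.12, 6.48 and 6.23 in controls and 4.59, 5.77 and 4.12 with Aa at 24 h, and 7.56, 7.39 and 6.62 in controls and 3.14, 3.70 and 3.18 with Aa at 48 h. The groups were apart at both times and farther apart at 48 h, with a change of -2.40 (SE 0.38, adjusted p = 0.00928) whose size is uncertain, since the Aa mean at 48 h was 3.34.

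SLC44A5, SAMD12 and SCAPER, of 522, 490.1 and 557 kb, shifted by -1.89, -1.78 and -1.37. With Aa, SAMD12 had means of 3.97 and 3.33 and SCAPER of 3.68 and 2.99 at 24 h and 48 h, under 4, so the sizes are uncertain. SLC44A5 did not pass with a random block or a filter at 3 and had -1.19 with the median of its probe sets. IMMP2L did not pass with a filter at 3, nor did SAMD12, which also failed with the median of probe sets. The adjusted p of SAMD12, 0.0497, was close to the threshold. DSCAML1, a neural adhesion molecule of 389.7 kb, differed from them: Aa raised it at 24 h, by 1.91, and its 48 h effect was -0.10. BCAT1 and VEGFC, a branched-chain amino acid transaminase and a lymphatic growth factor, span 139 and 109 kb. BCAT1 had values of 8.23, 8.39 and 9.10 in controls and 6.94, 7.20 and 8.20 with Aa at 24 h, and 7.23, 7.72 and 8.60 in controls and 3.62, 4.19 and 6.04 with Aa at 48 h. Aa was lower within every replicate at both times, and the change was -2.10 (SE 0.34, adjusted p = 0.0100). VEGFC shifted by -1.87 (SE 0.27, adjusted p = 0.00770), with an Aa mean at 48 h of 3.28, under 4, so the size is uncertain.

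Short genes were also among the largest shifts down. CHMP2A, a subunit of the membrane-remodelling ESCRT-III complex with a span of 3.54 kb, had values of 11.78, 12.05 and 11.81 in controls and 10.22, 10.82 and 10.77 with Aa at 24 h, and 11.72, 12.05 and 12.04 in controls and 7.07, 9.47 and 7.66 with Aa at 48 h. The controls had no call over time, and the Aa arrays were lower at 24 h and lower again at 48 h, with a change of -2.60 (SE 0.53, adjusted p = 0.0199). MICOS13, a subunit of the complex that shapes mitochondrial cristae, had the same course over 2.10 kb and shifted by -1.79 (SE 0.38, adjusted p = 0.0229), and MPND, a putative protease, by -1.60 (SE 0.26, adjusted p = 0.00981). The size for MPND is uncertain, since its Aa mean at 48 h was 3.19. In CHMP2A and MICOS13 the smallest shift was in replicate 2, at -1.35 and -0.82. ZFHX4-AS1, named by size of shift and not for a short span, shifted by -1.83 (SE 0.36, adjusted p = 0.0183).

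Effects that turned from a rise to a fall were led by STEAP2, a metalloreductase, whose values were 6.77, 6.56 and 5.72 in controls and 7.04, 7.29 and 7.40 with Aa at 24 h, and 7.22, 7.13 and 6.39 in controls and 6.32, 6.26 and 5.71 with Aa at 48 h. Aa was above all controls at 24 h and below all of them at 48 h, with a change of -1.71 (SE 0.31, adjusted p = 0.0142). BOC, a co-receptor of Hedgehog signalling, TNS1, a focal adhesion protein, CTTNBP2, a regulator of the actin cytoskeleton, and EFNA5, an ephrin ligand, shifted by -1.18, -1.18, -1.15 and -1.14. Their adjusted p-values were 0.0136, 0.00704, 0.00549 and 0.00549 in limma. EFNA5 had the highest level of them and measured 11.61, 11.88 and 11.44 in controls and 11.78, 12.35 and 11.76 with Aa at 24 h, and 11.77, 12.13 and 11.55 in controls and 10.92, 11.45 and 10.61 with Aa at 48 h. Its groups overlapped at 24 h, where Aa was higher within each replicate, and parted at 48 h, and with the median of its probe sets the change was -0.76. BOC did not pass with a random block. In BOC and TNS1 the Aa and control arrays overlapped at both times, and in CTTNBP2 at 24 h but not at 48 h.

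Targets of ATF4, the factor of the amino acid and integrated stress response, held more shifts down than up. Of 28 tested 5 were shifted down (17.9%) and 1 up (3.57%), against 4.68% and 6.28% of all genes, with a median of -0.090. SLC7A11, the cystine transporter, had values of 6.66, 6.74 and 6.81 in controls and 6.15, 6.47 and 6.54 with Aa at 24 h, and 7.52, 8.66 and 7.18 in controls and 4.11, 6.45 and 4.74 with Aa at 48 h. Aa was slightly below the controls at 24 h and further below at 48 h, where controls were higher, and the change was -2.34 (SE 0.57, adjusted p = 0.0354). TRIB3, DDIT4 and SLC7A1, a pseudokinase, an inhibitor of mTORC1 and a cationic amino acid transporter, shifted by -0.55 (SE 0.11, adjusted p = 0.0173), -0.63 (SE 0.13, adjusted p = 0.0230) and -0.66 (SE 0.14, adjusted p = 0.0252). TRIB3 and SLC7A1 did not pass with the median of their probe sets, nor did SLC7A1 without shared probe sets, where its change was about -0.40. SLC7A11 is also on the list of targets of NRF2, the antioxidant factor. Of those, 0 of 23 were shifted up (2 higher at an unadjusted p under 0.05). The 2 shifted down (8.70%, against 4.68% of all genes) were SLC7A11 and ME1, with -0.59 in ME1.

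Genes of p53 and of DNA repair had shares of shifts close to those of all genes, 6.28% up and 4.68% down. Of 28 p53 targets 2 were shifted up (7.14%) and 0 down (1 lower at an unadjusted p under 0.05). TP53I3, a quinone oxidoreductase, was lowered by Aa at both times, with effects of -2.23 and -0.88, and its shift was 1.34 (SE 0.18, adjusted p = 0.00704). PMAIP1 (NOXA, a trigger of apoptosis) had effects of 0.42 and 1.57 and shifted by 1.15 (SE 0.24, adjusted p = 0.0224). Of 46 DNA repair genes 3 were shifted up (6.52%), RAD51C, RAD54L and FANCG, and 2 down (4.35%). REV3L, the catalytic subunit of a translesion polymerase, was among the latter, with -0.49. Apoptosis regulators had 3 shifts up (13.0%) and 1 down (4.35%) among 23. BCL2L1 and BIK shifted by 0.67 and 0.78, and BCL2, which protects cells from apoptosis, by -1.15, although 1 of its 2 probe sets moved the other way and the change was as small as -0.44 with their median. With a random block REV3L, BCL2L1 and BCL2 did not pass. RAD51C, BCL2L1 and BCL2 did not pass with the median of probe sets, nor BCL2L1 without shared probe sets, where it had 0.29.

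Heat shock proteins had 0 shifts down among 16 (0 lower at an unadjusted p under 0.05), with a median of 0.27. Shifts up were 4 of 16 (25%), against 6.28% of all genes. They were DNAJA1, CHORDC1, HSPH1 and BAG3, chaperones and co-chaperones, with 0.54, 0.80, 0.55 and 0.44. HSPH1 rests on its shared probe set: without such probe sets its change was -0.024. ER chaperones had 1 shift up, DNAJB11 (0.55), and 1 down, ATF6 (-0.72), among 23 (4.35% each way, against 6.28% and 4.68% of all genes). Among 19 genes of fatty acid oxidation 4 were shifted up (21.1%), of which ACADVL, ETFDH and ECI2 had 0.66, 0.63 and 0.42. PPARA, the nuclear receptor that induces such genes, was the 1 shifted down (5.26%), at -0.73. Cholesterol synthesis genes had 2 shifts up, NSDHL and EBP, among 19 (10.5%), with 0.80 and 0.48. At 24 h 15 of these 19 fell with Aa, and at 48 h 10, against 22.8% and 28.1% of all genes. PPARA did not pass with a random block or with the median of its probe sets, where it had -0.33. HSPH1, ATF6, ETFDH and EBP did not pass with the median of probe sets, nor DNAJA1 and EBP without shared probe sets, where NSDHL had 0.53, nor BAG3 with centred arrays.

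Calls among TGF-beta and matrix genes depended on the setting. Of 27 genes of TGF-beta and matrix 4 were shifted up (14.8%) and 0 down (5 lower at an unadjusted p under 0.05). The median change was 0.39, and 6.28% of all genes were shifted up. COL1A1, a chain of type I collagen, had values of 8.70, 8.54 and 8.19 in controls and 7.99, 7.73 and 7.15 with Aa at 24 h, and 8.07, 8.13 and 7.72 in controls and 8.73, 8.20 and 8.03 with Aa at 48 h. Aa was below all controls at 24 h, the groups overlapped at 48 h with Aa higher in each replicate, and the change was 1.20 (SE 0.16, adjusted p = 0.00704). Its 3 probe sets disagreed, and with their median the change was -0.011. COL1A1 is also on the list of fibroblast markers, of which 5 of 12 passed the filter. DCN, LUM, S100A4 and ACTA2 had means of 11.8, 9.60, 9.68 and 7.06, and PDGFRA, PDGFRB, COL1A2 and COL3A1 had means of 2.65, 2.64, 2.90 and 2.78. The summed linear level of that list was 5470 to 7936 in 24 h controls, 4727 to 6248 with Aa at 24 h, 5553 to 7057 in 48 h controls and 3742 to 5420 with Aa at 48 h. Its part in the result was not tested. S100A4, on that list too, was shifted down, at -0.57. PLAUR, the urokinase receptor, shifted by 1.18 (SE 0.17, adjusted p = 0.00704), and TGFBI and COL7A1 by 0.61 and 0.45. PLAUR did not pass with the median of its probe sets or without shared probe sets, where it had 0.46. TGFBI, COL7A1 and S100A4 did not pass with a random block, nor COL7A1 with a trended and robust prior.

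CCN2, a matricellular target of YAP, had effects of -0.99 at 24 h and 0.021 at 48 h and a change of 1.01 (SE 0.20, adjusted p = 0.0175). It was the 1 shift up among 18 YAP targets (5.56%, against 6.28% of all genes). Among 21 kidney injury markers CD44, a hyaluronan receptor, was shifted up, by 1.01 (SE 0.13, adjusted p = 0.00633). VCAM1, an adhesion molecule, was shifted down, at -1.03 (SE 0.24, adjusted p = 0.0297). Each makes up 4.76% of that list, against 6.28% up and 4.68% down over all genes. CDH6, the cadherin of the proximal tubule, was the only one of the 7 tubule markers tested with a call (14.3% shifted down, against 4.68% of all genes). At an unadjusted p under 0.05 in limma, 0 of the 7 were higher and 4 lower. Their median change was -0.35, and 5 of 7 were below 0 in all 3 replicates, against 2828 of 10791 genes. CDH6 measured 12.89, 13.17 and 12.67 in controls and 12.44, 12.66 and 12.17 with Aa at 24 h, and 12.44, 12.69 and 12.33 in controls and 10.86, 11.57 and 10.58 with Aa at 48 h. Aa was lower at both times without overlap and further below at 48 h, with a change of -0.998 (SE 0.16, adjusted p = 0.0107). Without its shared probe set the change was -0.37 and did not pass.

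Lysosome genes had 2 shifts up (7.69%) and 1 down (3.85%) among 26, near the shares of all genes, 6.28% and 4.68%. CTSL and MAP1LC3B had 0.57 and 0.61 and CTSB -0.60, the latter with probe sets that disagreed. The transcription elongation and polymerase II list had 4 shifts up (9.30%) and 1 down (2.33%) among 43. POLR2A, the largest subunit of the polymerase, PAF1 and HEXIM1, regulators of its elongation, shifted by 0.68, 0.63 and 0.73. AFF1, a scaffold of the super elongation complex, was shifted down, with 13.08, 13.13 and 12.70 in controls and 13.07, 13.24 and 12.82 with Aa at 24 h, and 13.46, 13.59 and 13.13 in controls and 12.69, 12.91 and 12.35 with Aa at 48 h. Its groups overlapped at 24 h and were apart at 48 h, and the change was -0.81 (SE 0.089, adjusted p = 0.00549). With the median of its probe sets it was -0.28 and did not pass. Of 18 xenobiotic genes UGDH and TIPARP were shifted down (11.1%), at -0.62 and -0.88, and POR up (5.56%), at 0.48. POR did not pass with a random block.

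Several housekeeping groups had no shift in limma. None of 48 cytosolic ribosomal protein genes passed (0 higher and 1 lower at an unadjusted p under 0.05), with changes from -0.27 to 0.15. Glycolysis (0 of 16, with 1 higher and 1 lower unadjusted) and the circadian clock (0 of 15, with 2 and 4) had none either. Metallothioneins, small metal-binding proteins, had 0 of 9 with 0 higher and 4 lower unadjusted, although 8 of 9 were below 0 in all 3 replicates, with a median of -0.24. Without the block none of the 4 lists had a call, but only 89 of 10791 genes passed there, so this adds little. Oxidative phosphorylation, splicing factors and proteasome genes had 1 shift up each, NDUFB9, SNRNP70 and PSMD12 (1 of whose 2 probe sets moved the other way), among 41, 37 and 27, and ribosome biogenesis 2, POLR1C and NOP58, among 34, with 0 shifts down in each list (1, 6, 1 and 0 lower unadjusted). The shares shifted up in those 4 lists were 2.44%, 2.70%, 3.70% and 5.88%, against 6.28% of all genes. Hypoxia genes had 1 shift up, ADM, and 1 down, MXI1 (-0.43), among 23 (4.35% each way, against 6.28% and 4.68%). MXI1 lost its call in 6 of 9 settings that kept all arrays and a fixed or random block, NOP58 in 6 of 9, POLR1C in 4 of 9, PSMD12 in 4 of 8, SNRNP70 in 2 of 8 and NDUFB9 in 1 of 8. Of 10 fatty acid synthesis genes ME1 was shifted down (10%, against 4.68% of all genes) and 0 up (1 higher unadjusted). None of 4 distal nephron and 2 endothelial markers tested had a call (1 and 0 higher, and 0 lower, unadjusted).

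**Figure D5:**
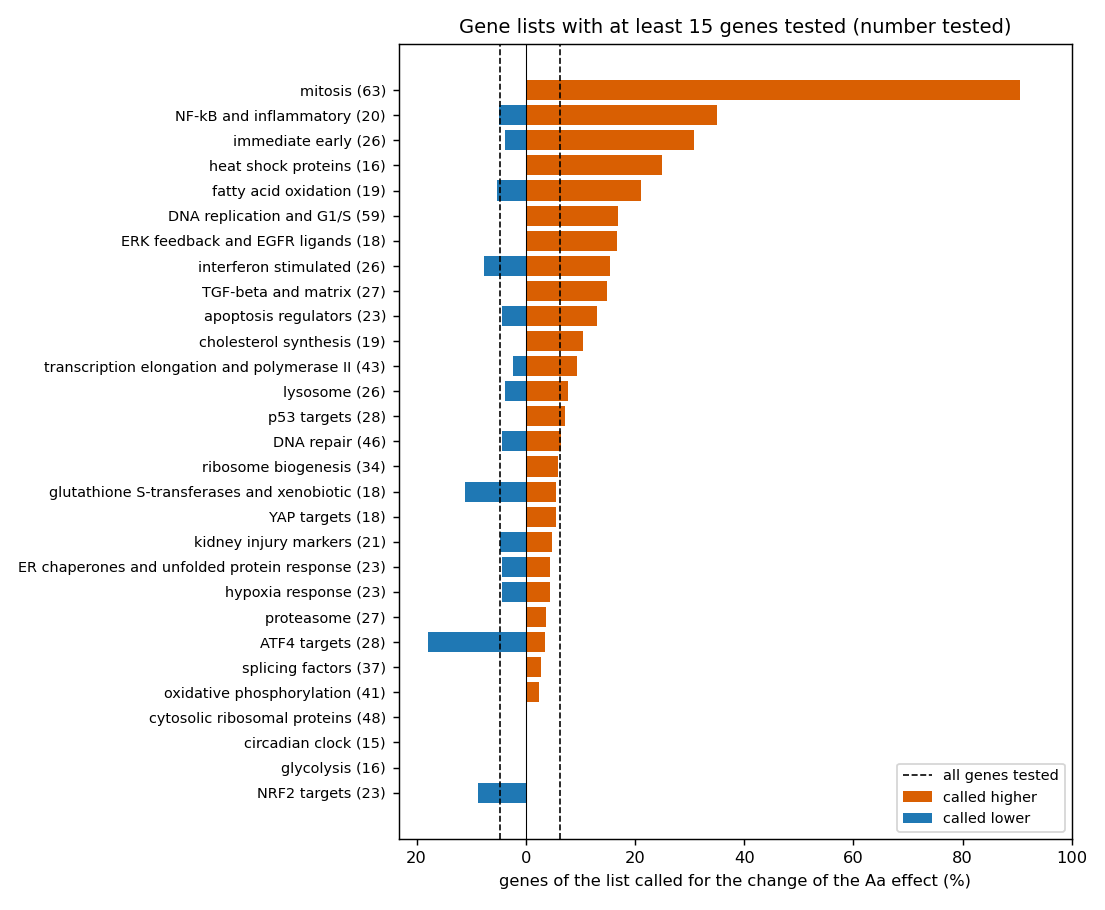
Share of each gene list with at least 15 genes tested that was shifted up (orange, to the right) or down (blue, to the left), in percent, with the number tested in brackets. Dashed lines are the shares over all genes tested, 6.28% up and 4.68% down. Mitosis reached 90.5% up, and the ATF4 targets 17.9% down.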

How the data were processed

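Total RNA of 12 HK-2 samples was hybridised to Affymetrix whole-genome arrays, 1 array per sample. The deposited values are log2 expression per probe set made by the authors with GCRMA, per the submitters' processing notes, which give no version. Of 54675 probe sets, 41091 had 1 gene symbol in the platform annotation, 1801 had several, 11721 had none and 62 were control probe sets. Where a gene had several probe sets, the brightest over all arrays stands for it, and genes whose brightest averaged under 4 were left out. All 12 arrays were fitted with limma 3.58.1 in R 4.3.3 (lmFit and eBayes, 4 groups, replicate number as fixed block terms), and p-values were adjusted by Benjamini-Hochberg over 10791 genes at 0.05. The fit was tested on data simulated from the same blocked model, which cannot test the choice of block. The block on replicate number was set in advance as part of the comparison. Same-numbered arrays deviated together in all 18 pairs (r at least 0.35), but the labels do not say what equal numbers share.

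Named genes are those called with 1 sign in all 3 replicates that were the 10 largest in each direction with all group means at least 4, the 5 largest with a group mean below 4, the 5 largest whose effect turned, or, in each gene list, up to 4 with the smallest p. Genes, lists and tests were chosen with earlier results of these data known. Gene spans and promoters came from RefSeq (GRCh38.p14). Alternatives were other blocks, filters, probe set rules, normalizations and eBayes settings, and each replicate left out. Array number limits the precision.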

Additional observations from a re-analysis of the deposited data

Results flagged for a closer look

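The difference of the Aa effect between 24 h and 48 h was itself tested, as an interaction contrast in limma, and passed for 678 genes with a higher effect at 48 h and 505 with a lower one. The Aa effects at the 2 times passed in opposite directions in 79 genes shifted up and 35 shifted down. The 10 genes below are the 5 largest of each kind with all group means at least 4. Without the block PLK1, STEAP2, BOC, TNS1, CTTNBP2 and EFNA5 did not pass. The change of the Aa effect was 1.76 in ID2, 1.58 in GEM, 1.47 in PLK1, 1.42 in PIMREG and 1.42 in FAM83D, which turned from a fall to a rise. It was -1.71 in STEAP2, -1.18 in BOC, -1.18 in TNS1, -1.15 in CTTNBP2 and -1.14 in EFNA5, which turned from a rise to a fall.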

How the results depend on the processing

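The number of shifts depended on the processing. Their direction could not turn with another block or eBayes setting, which leave the estimate as it is, nor with a replicate left out, since all 1183 had 1 sign in the 3 replicates. It was kept in 1165 of 1183 genes with the median of a gene's probe sets and in 883 of 896 without shared probe sets. Without the replicate block, so with the replicate numbers ignored, 89 genes passed, 80 up and 9 down. These held 31 mitosis genes up and 2 genes over 300 kb down, and of the 111 named genes 13 kept their call. In that fit 1108 genes rose and 1386 fell with Aa at 24 h and 1919 rose at 48 h, while over time 331 rose and 263 fell in Aa cells and 25 and 29 in controls. A random block gave 971. With 1 replicate left out 0 to 445 genes passed (0 to 202 up and 0 to 243 down), with 0 to 36 mitosis genes up and 0 to 72 genes over 300 kb down. The Aa effect at 24 h then gave 848 to 1794 rises and 1207 to 2164 falls, and that at 48 h 1882 to 2528 and 2011 to 2723. Over time Aa cells had 80 to 797 rises and 46 to 836 falls, and controls 1 to 354 and 1 to 300. These fits have 3 residual degrees of freedom in place of 6. With no filter on low values 303 genes were shifted down, 16 of them over 300 kb, where the median change was -0.0037. Without probe sets marked as shared 422 of 7933 genes were shifted up, 1590 fell with Aa at 24 h, 773 rose over time in Aa cells and 556 fell over time in controls. With a trended and robust prior 762 were shifted down, 90 of them over 300 kb. The sign turned in COL1A1 (-0.011) and CTSB (0.14) with the median of a gene's probe sets and in HSPH1 (-0.024) without shared probe sets. Of the 111 named genes, 47 kept their call in every setting other than the left-out replicates and the fit without the block. The causes were not tested.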
